A study of Mus musculus with 6 samples.

Results

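The 36 genes described here encode interstitial matrix collagens and glycoproteins, the proteins that fill the space between cells, with the enzymes that cross-link or degrade them. They were taken by symbol from a list written for this description, and all 36 were found among the 14861 genes of the deposited table. Each had a mean above the limit for testing, so 36 of the 12993 tested genes are members. The list holds 6 fibrillar collagens, 4 chains of the collagen VI and VIII networks, 3 fibril-associated collagens, 5 small leucine-rich proteoglycans and 8 elastic fibre proteins. The other members are 3 lysyl oxidases, 6 adhesive and matricellular glycoproteins and the collagen-degrading protease Ctsk.

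Messenger RNA was sequenced from mouse inguinal white fat, a subcutaneous pad at the groin. The AdIGF1RKO group came from a cross of the floxed strain B6;129-Igf1rtm2Arge/J with the transgenic strain B6; FVB-Tg (Adipoq-Cre)1Evdr/J, and the design text gives the floxed allele as Igf1rfl/fl. The controls, called Flox, were littermates with the floxed gene. Igf1r encodes the receptor for insulin-like growth factor 1, and the Adipoq promoter drives Cre in adipocytes, so that fibroblasts and other cells of the pad are not its target. Both groups received normal chow (D12450J, fat supplying 10% of calories) for 24 weeks and were fasted the night before dissection. The sources used here state neither age nor sex. Each group had 3 libraries, numbered 1 to 3 in the titles, which speak of mice. Nothing else states that each library came from a separate animal, so the p-values measure the spread between these samples.

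Fibrillar collagens assemble into the rope-like fibres that carry tension, and lysyl oxidases cross-link them and elastin. Collagen VI forms beaded filaments close to cells and is abundant around adipocytes, where the matrix limits how far a fat cell can enlarge. In white fat most of these genes are transcribed by fibroblasts and adipocyte progenitors, while Sparc, the collagen VI genes and several others are also expressed in adipocytes.

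Levels are given in scaled CPM, the counts per 1000000 reads of a library of average size after the libraries were aligned by the median ratio over all genes. The libraries held between 60617147 and 70695527 reads, 1 read corresponded to between 0.0130 and 0.0207 scaled CPM, and the members' values rest on 58 to 259389 reads. Differences are AdIGF1RKO minus Flox on the log2(scaled CPM + 1) scale, which understates the difference of low genes. Igf1r, the targeted gene, had 6.44, 6.47 and 5.86 scaled CPM in Flox 1, 2 and 3 and 6.11, 5.27 and 4.85 in AdIGF1RKO 1, 2 and 3. Those groups overlapped, and the difference of -0.18 did not pass limma (adjusted p = 0.998). The counts cover the whole gene in all cells of the pad and the deleted stretch is unstated, so they are a weak check of the genotype.

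Several libraries stood apart before any member was read out. Of 23 skeletal muscle markers, 22 were in the table, and together they held 13.6% of the reads of Flox 3 and 4.93% of those of AdIGF1RKO 3. The other libraries had between 0.0567% and 0.948%. In AdIGF1RKO 2 the 9 lipid-associated macrophage markers had a median deviation of 1.70 on the log2 scale from their 6-library means, against -0.41 to -0.10 in the other libraries. Adipocyte markers, all 11 of them in the table, summed to between 51464 and 69884 scaled CPM over the 6 libraries, with Adipoq at 3348 to 4927 scaled CPM. The 13 of 14 fibroblast and adipocyte progenitor markers in the table summed to 1920 to 2331 scaled CPM in Flox and 1904 to 2164 in AdIGF1RKO. For 8 of 10 genes, tendon and fascia markers summed to a low 25.2, 32.8 and 25.8 scaled CPM in Flox 1, 2 and 3. In AdIGF1RKO 1, 2 and 3 the sums were 25.1, 23.7 and 22.9, so this sum was not raised in the muscle-rich libraries. The 4 tested had their highest median deviations in the muscle-rich libraries, 0.11 in Flox 3 and 0.19 in AdIGF1RKO 3. Scx, Tnmd and Mkx were near the floor, below the limit for testing, and so not among these 4. Scx had 1.68 and 1.32 scaled CPM in the muscle-rich libraries against 0.311 to 0.537 elsewhere, and Tnmd 1.82 and 1.26 against 0.0848 to 0.648. Mkx went the other way in part, with 0.0414 and 0.0788 against 0.0648 to 0.904. The 11 endothelial markers summed to 716, 732 and 635 scaled CPM in Flox and 896, 743 and 735 in AdIGF1RKO, without overlap. Of them 10 were higher in AdIGF1RKO (median difference 0.19), beside 44.8% of all tested genes. Single markers without overlap numbered 6, all higher, beside 4.41% of all tested genes in that direction. Past limma were 0, and 2 had an unadjusted limma p under 0.05, beside 2.96% of all tested genes. The 11 pericyte and smooth muscle markers summed to 787 to 1314 in Flox and 737 to 956 in AdIGF1RKO.

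No member passed the limma test between the groups, with an adjusted p of 0.998 for all 36, beside 0% of all tested genes past the same threshold. The edgeR quasi-likelihood test and DESeq2 on the recovered reads also called 0 members. DESeq2 called 23 of all genes (0.177%). At an unadjusted p under 0.05, limma had 0 members and 385 of all tested genes (2.96%). By sign alone 23 members were higher and 13 lower in AdIGF1RKO, and the median of the members was 0.11, beside 44.8% of all genes higher and a median of -0.02. That sign count depended on the scaling, with 12 members higher in the values as deposited and 35 when libraries were scaled to equal sums. Under these scalings the all-gene median was -0.17 and 0.09, and the members' median lay above it by 0.119 and 0.136, against 0.127 with median ratios. That distance was 0.0267 without Flox 3, 0.0580 without AdIGF1RKO 1, 0.0596 with muscle content as a covariate and 0.0774 without both muscle-rich libraries. The members' median itself was 0.03 without Flox 3 and 0.04 without AdIGF1RKO 1. The median difference of 0.11 was smaller than the spread between libraries, whose median deviations had a pooled SD of 0.16. In this bulk tissue, fewer cells of a type and less RNA per cell cannot be told apart.

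The spread of the members between libraries of the same group was wider than the difference between the groups. Their median deviation from the 6-library mean was -0.03, 0.09 and -0.22 on the log2 scale in Flox 1, 2 and 3, and 0.23, 0.02 and -0.11 in AdIGF1RKO 1, 2 and 3. AdIGF1RKO 1, the library with the smallest share of muscle reads, had the highest value for 19 members (52.8%, beside 15.4% of all tested genes). Flox 3, with the most muscle reads, had the lowest value for 18 members (50.0%, beside 26.2% of all tested genes), and AdIGF1RKO 3 for 10 members (27.8%, beside 13.1%). The fibroblast markers had their 2 lowest sums in these same 2 muscle-rich libraries. All members together took 1.11%, 1.24% and 0.739% of the reads in Flox 1, 2 and 3 and 1.32%, 1.10% and 1.00% in AdIGF1RKO 1, 2 and 3. The part of muscle or of the fibroblast content in these differences was not tested.

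**Figure D1:**
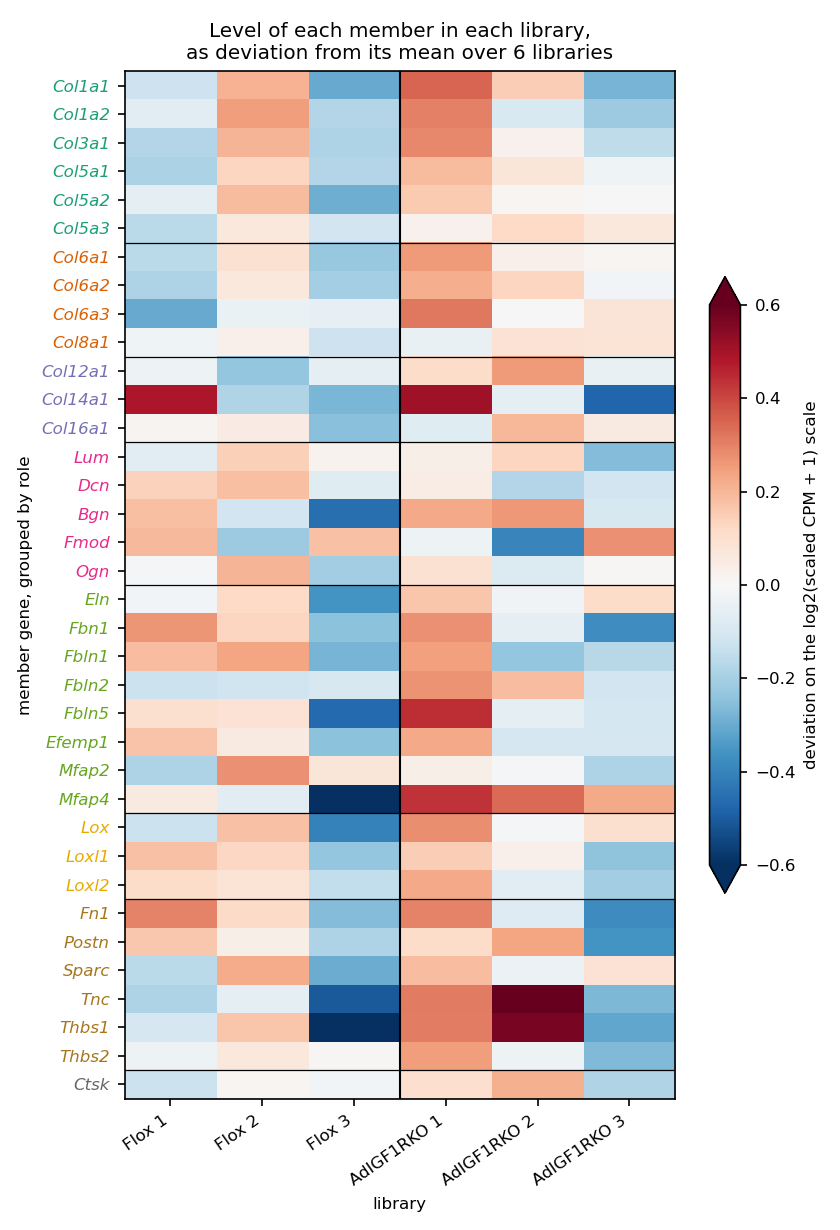
Heat map of the 36 members (rows, grouped by role and with the label colour marking the role) in the 6 libraries (columns). Colour gives the deviation from the gene's mean over all libraries on the log2(scaled CPM + 1) scale, clipped at 0.6 in both directions. Flox 3 is blue for 32 members and AdIGF1RKO 1 is red for 33, while columns of 1 group do not share a colour.

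Levels between genes were compared per kilobase of transcript. Dcn, which encodes the collagen-binding proteoglycan decorin, had the highest mean at 1424 scaled CPM per kilobase, with 1254 to 1605 over the 6 libraries. Sparc, a collagen-binding matricellular protein, followed at 1296 with a range of 1046 to 1498, so these ranges overlapped. Col3a1 came next at 255 (222 to 309), below both in every library. Efemp1 at 122 (102 to 142) and Bgn at 102 (73.1 to 120.0) overlapped again. At the low end stood Col12a1 at 0.278 (0.222 to 0.345) and Tnc at 0.471 (0.274 to 0.818), whose ranges also overlapped.

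**Figure D2:**
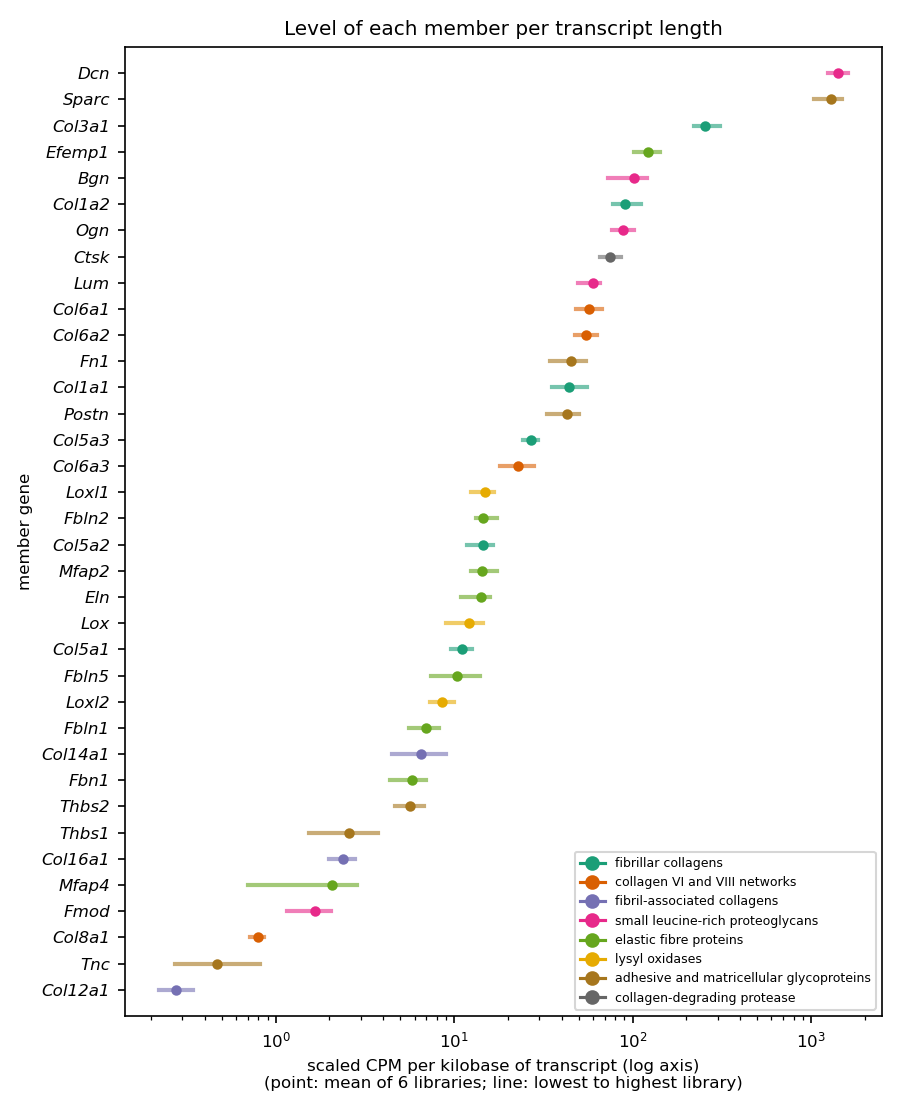
Mean level of each member over 6 libraries in scaled CPM per kilobase of transcript on a log axis, with lines from the lowest to the highest library and colours for the role. Dcn and Sparc lie apart at the top, at 1424 and 1296, and Col12a1 and Tnc lie lowest, at 0.278 and 0.471.

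Of the fibrillar collagens, 0 of 6 passed the test, 5 of 6 had a higher mean log2 value in AdIGF1RKO, and the median difference was 0.12. The values as deposited put 0 of 6 higher, and scaling to equal sums 6 of 6. Col3a1, the type III chain of elastic and young tissue, had 1242, 1619.5 and 1234 scaled CPM in Flox 1, 2 and 3 and 1718, 1428 and 1263 in AdIGF1RKO 1, 2 and 3. Each group held 1 high library, Flox 2 and AdIGF1RKO 1, and the groups overlapped, with a difference of 0.11 (SE 0.17). Col1a1 and Col1a2 encode the chains of type I collagen, the main fibre of the tissue. Col1a1 had 249 ± 46.0 scaled CPM in Flox against 277 ± 59.4 in AdIGF1RKO (SD, n = 3), a difference of 0.14 with a 95% interval from -0.34 to 0.63. Without AdIGF1RKO 1 the Col1a1 difference was 0.0056, and without AdIGF1RKO 3 it was 0.32. Col1a2 had 488 ± 77.0 and 489 ± 94.7, a difference of -0.0039 with an interval from -0.43 to 0.42.

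The type V chains join type I fibrils and limit their thickness. Col5a1 had 80.6, 101 and 81.2 scaled CPM in Flox and 105, 96.7 and 90.3 in AdIGF1RKO. Col5a2 had 91.6, 109 and 77.8 in Flox and 106, 96.0 and 95.1 in AdIGF1RKO. Col5a3 had 148, 173 and 153 in Flox and 168, 179.9 and 173 in AdIGF1RKO. In each of these genes Flox 2 lay within the AdIGF1RKO range or, for Col5a2, above it, and Col5a3 had the smallest unadjusted p of the fibrillar collagens (difference 0.14, SE 0.09, 95% interval -0.08 to 0.36).

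Ratios within a library do not depend on the scaling, and were chosen after the values were seen. Per kilobase, Col1a1 stood to Col1a2 at 0.464, 0.470 and 0.442 in Flox and at 0.50, 0.569 and 0.462 in AdIGF1RKO, with AdIGF1RKO 3 inside the Flox range. Type I protein holds more of the Col1a1 chain than of the Col1a2 chain, while with the transcript lengths used here the reads were fewer for Col1a1 in every library. Col3a1 stood to Col1a1 at 5.31 to 6.32 over the 6 libraries, highest in the 2 muscle-rich libraries.

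The collagen VI and VIII networks were the role group with the highest median difference. The collagen VI genes together with Col8a1 had a median of 0.21, with 4 of 4 genes higher in AdIGF1RKO and 0 past the test. Col6a1, Col6a2 and Col6a3 encode the 3 chains of the collagen VI trimer, and their coordinates and upstream sequences are shown. The chains kept the same direction in all 17 alternative settings, but 13 members kept theirs in every setting that tested them. The other filters and the replicate block leave each difference as it is, so these settings could not reverse a direction. The values as deposited moved all members down and equal sums moved all up. Keeping a direction therefore depends on the size of the difference and does not single out collagen VI. In mouse GRCm38.p6 (RefSeq), all 3 genes lie on the minus strand, Col6a1 at chr10:76708792-76726044, Col6a2 at chr10:76595756-76623630 and Col6a3 at chr1:90766860-90844001. The windows run from 150 to 31 bases before the start given in the promoter table, at chr10:76726075-76726194, chr10:76623661-76623780 and chr1:90844002-90844121. For Col6a3 that start lies 30 bases inside the annotated end of the gene, so its window begins at the base next to the gene. All 3 windows lie outside the annotated genes. Col6a2 has 2 starts in the table, of which the outer one was used. Capitals mark a match to TGANTCA, the element bound by AP-1 factors.
Col6a1: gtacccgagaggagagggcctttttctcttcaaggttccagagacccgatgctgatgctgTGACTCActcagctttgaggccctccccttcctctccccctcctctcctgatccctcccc
Col6a2: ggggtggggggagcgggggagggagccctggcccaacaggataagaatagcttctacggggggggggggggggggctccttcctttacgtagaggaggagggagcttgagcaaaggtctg
Col6a3: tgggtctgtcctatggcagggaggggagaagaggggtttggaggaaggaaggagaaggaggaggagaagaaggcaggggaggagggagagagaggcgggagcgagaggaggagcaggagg

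The promoter table held 23 of the 36 members. On either strand of the window of 120 bases, TGANTCA occurred in 1 of these 23, Col6a1, at 90 bases before the start, and in 3.62% of 27025 genes. TATAAA occurred in 3 members, Col3a1, Thbs2 and Tnc, and in 5.28% of all genes. CCAAT occurred in 6 members and in 21.8% of all genes, and GGGCGG in 4 members and 23.7%. The windows of Col6a1, Col6a2 and Col6a3 held none of the other 3 motifs. A match describes the letters only, and none of these libraries measured binding.

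Col6a1 had 208, 248 and 198 scaled CPM in Flox 1, 2 and 3 and 278, 237 and 235 in AdIGF1RKO 1, 2 and 3. Its difference was 0.20 (SE 0.12, 95% interval -0.10 to 0.49), and Flox 2 lay above AdIGF1RKO 2 and 3. Col6a2 had 190.1, 225 and 187 in Flox and 251, 236 and 214 in AdIGF1RKO, with a difference of 0.22 (SE 0.11, interval -0.05 to 0.49). Here only Flox 2 and AdIGF1RKO 3 crossed.

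Col6a3, the longest chain and the source of the cleaved fragment endotrophin, had 164, 197 and 196 scaled CPM in Flox and 252, 202 and 213 in AdIGF1RKO. All 3 AdIGF1RKO values were above all 3 Flox values, the nearest being 197 in Flox 2 and 202 in AdIGF1RKO 2. The difference was 0.26 (SE 0.12, interval -0.04 to 0.56). Col6a3 was 1 of 2 members without overlap, the other being Mfap4, both higher in AdIGF1RKO, beside 4.41% of all tested genes without overlap in that direction. In the other direction there were 0 members, beside 3.86% of all tested genes. With a library left out, the count in either direction ranged from 2 (without AdIGF1RKO 2, beside 13.3% of all tested genes) to 10 (without Flox 2, 27.8% of members beside 17.3%). Between these were 9 without AdIGF1RKO 3 (25.0% beside 18.4%), 7 without AdIGF1RKO 1 (19.4% beside 19.0%), 5 without Flox 1 (13.9% beside 15.7%) and 4 without Flox 3 (11.1% beside 18.6%). Without both muscle-rich libraries 10 members were without overlap, 27.8% beside 30.3% of all tested genes. Over all settings the difference ranged from 0.03 to 0.32 for Col6a1, from 0.05 to 0.34 for Col6a2 and from 0.10 to 0.38 for Col6a3, the lowest with the values as deposited, where the all-gene median was -0.17.

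The ratios between the chains of the trimer were also read within libraries, again after the values were seen. Per kilobase, Col6a1 stood to Col6a2 at 0.968 to 1.07 over the 6 libraries. Col6a3 stood to Col6a1 at 0.359, 0.362 and 0.449 in Flox and at 0.414, 0.388 and 0.414 in AdIGF1RKO, with Flox 3 above all others. Col8a1, a short-chain network collagen of vessel walls, had 3.94 ± 0.268 scaled CPM in Flox against 4.22 ± 0.264 in AdIGF1RKO (SD, n = 3). The collagen VI genes and the endothelial markers were both highest in AdIGF1RKO 1, and the part of the vessel content in the collagen VI values was not tested. That library was the highest for 19 of the 36 members, so this is not particular to collagen VI.

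The fibril-associated collagens sit on the surface of fibres, and 2 of 3 were higher in AdIGF1RKO with 0 past the test. Col12a1 had 3.08, 2.55 and 3.03 scaled CPM in Flox and 3.50, 3.97 and 3.04 in AdIGF1RKO, where AdIGF1RKO 3 lay within the Flox range. Col14a1 had 50.2, 31.3 and 29.3 in Flox and 51.1, 34.2 and 25.4 in AdIGF1RKO. Replicate 1 was the high library in both groups, and the means of 36.9 ± 11.6 and 36.9 ± 13.1 scaled CPM (SD, n = 3) gave the widest interval of all collagens, -0.75 to 0.71. Col16a1 had 12.6, 12.9 and 10.3 in Flox and 11.8, 14.4 and 12.9 in AdIGF1RKO, with overlap and a difference of 0.12 (SE 0.13).

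Small leucine-rich proteoglycans bind collagen fibrils and regulate their spacing. Of 5, 2 were higher and 3 lower in AdIGF1RKO, 0 passed the test, and the median difference was -0.06. Scaling to equal sums put 4 higher, and the values as deposited 1. Dcn had 2748, 2822 and 2371 scaled CPM in Flox and 2574, 2204 and 2305 in AdIGF1RKO. AdIGF1RKO 1 lay above Flox 3, and the difference was -0.16 (SE 0.12, 95% interval -0.46 to 0.13). Dcn was the 1 member lower in AdIGF1RKO in every one of the 17 alternative settings, at -0.33 to -0.04.

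Bgn, which encodes the related proteoglycan biglycan, had 275, 224 and 177 scaled CPM in Flox and 284, 290.4 and 227 in AdIGF1RKO. Only Flox 1 lay within the AdIGF1RKO range, and the difference was 0.26 (SE 0.18, 95% interval -0.18 to 0.70). Without Flox 3, the lowest library, the Bgn difference was 0.10. Per kilobase, Bgn stood to Dcn at 0.0726, 0.0576 and 0.0542 in Flox and at 0.0802, 0.0957 and 0.0716 in AdIGF1RKO, overlapping between Flox 1 and AdIGF1RKO 3. Lum, for lumican, had 139, 161 and 148 in Flox and 149, 159.6 and 121 in AdIGF1RKO, with overlap and the lowest value in AdIGF1RKO 3. Ogn, for osteoglycin, had means of 228 ± 32.6 and 229 ± 14.0 scaled CPM in Flox and AdIGF1RKO, and Fmod, for fibromodulin, had 5.35 ± 0.979 and 4.97 ± 1.37 (SD, n = 3).

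Elastic fibres have a core of elastin on a scaffold of fibrillin microfibrils, joined by fibulins and microfibril-associated proteins. Of these 8 genes 5 were higher and 3 lower, 0 passed the test, and the median difference was 0.09, with 4 higher in the values as deposited and 8 with equal sums. Mfap4, a microfibril-associated glycoprotein, had the largest difference of all 36 members. It had 3.55, 3.18 and 1.20 scaled CPM in Flox and 4.90, 4.54 and 4.13 in AdIGF1RKO, without overlap and with Flox 3 far below the rest. The ratio of means was 1.71 and the difference 0.67 (SE 0.29, interval -0.02 to 1.36). Its level in Flox 3 rests on 58 reads, the fewest of any member. Over all settings the Mfap4 difference lay between 0.34 and 0.86, and the lowest value was the 1 without Flox 3.

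Fbln2, for fibulin-2, had 63.1, 63.6 and 64.7 scaled CPM in Flox and 83.6, 78.8 and 63.8 in AdIGF1RKO. The Flox libraries were close together, 2 AdIGF1RKO libraries lay well above them, and AdIGF1RKO 3 lay within them (difference 0.23, SE 0.12). Eln, for elastin, had 53.5, 58.9 and 42.0 in Flox and 60.9, 53.4 and 58.5 in AdIGF1RKO, with overlap. Efemp1, for fibulin-3, was the most abundant of this group, with 278, 256 and 208 in Flox and 289, 230.1 and 230.4 in AdIGF1RKO and a difference of 0.02.

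Fbn1, for fibrillin-1, had 71.5 ± 12.8 scaled CPM in Flox against 67.1 ± 15.2 in AdIGF1RKO (SD, n = 3). For Fbln1 the means were 26.3 ± 5.06 and 24.4 ± 4.77, and for Mfap2 16.0 ± 2.70 and 14.7 ± 1.22. Fbln5, which links elastin to integrins, had 56.8 ± 12.0 and 64.9 ± 14.5 scaled CPM. All of these groups overlapped, and 7 of the 8 elastic fibre genes had their highest value in AdIGF1RKO 1.

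Lysyl oxidases oxidise lysines of collagen and elastin so that the chains cross-link. Lox had 51.8, 64.3 and 42.6 scaled CPM in Flox and 69.2, 56.4 and 60.7 in AdIGF1RKO, where only Flox 2 lay among the AdIGF1RKO values (difference 0.24, SE 0.17, 95% interval -0.16 to 0.64). The Lox difference was 0.099 without Flox 3 and 0.39 without Flox 2. Loxl1 had 55.1, 53.1 and 41.4 in Flox and 54.1, 49.7 and 41.0 in AdIGF1RKO. Loxl2 had 48.8, 47.8 and 40.6 in Flox and 53.1, 43.2 and 39.0 in AdIGF1RKO. Both of the latter had their lowest values in the replicates numbered 3, and 0 of the 3 genes passed the test.

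Adhesive and matricellular glycoproteins connect cells to the matrix or tune that contact. Of 6, 3 were higher and 3 lower in AdIGF1RKO, 0 passed the test, and the values as deposited put 2 higher, equal sums 6. Sparc had 2648, 3446 and 2405 scaled CPM in Flox and 3364, 2884 and 3145 in AdIGF1RKO. Flox 2 was the highest of all 6 libraries, and the difference was 0.16 (SE 0.16, 95% interval -0.23 to 0.55). It was 0.049 without Flox 3 and 0.31 without Flox 2.

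Tnc, which encodes the wound-associated glycoprotein tenascin-C, had 2.67, 3.01 and 1.95 scaled CPM in Flox and 4.18, 5.81 and 2.46 in AdIGF1RKO. AdIGF1RKO 2 was the highest library and AdIGF1RKO 3 lay within the Flox range, with a ratio of means of 1.63 and a difference of 0.50 (SE 0.27, interval -0.16 to 1.15). Thbs1, for thrombospondin-1, an activator of latent TGF-beta, had 13.4, 16.3 and 9.03 in Flox and 18.1, 22.0 and 11.5 in AdIGF1RKO. It showed the same order of libraries as Tnc, with a difference of 0.37 (SE 0.29, interval -0.32 to 1.07). AdIGF1RKO 2, highest in both, was also the library with the high lipid-associated macrophage markers, and without it the difference was 0.27 for Tnc and 0.18 for Thbs1. Without Flox 3, the lowest in both, it was 0.37 for Tnc and 0.16 for Thbs1.

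With the replicate number as a block, 3 members had an unadjusted limma p under 0.05, beside 582 of all tested genes (4.48%). They were Thbs1, Mfap4 and Tnc, and none passed adjustment (limma adjusted p = 0.914). Each was higher in AdIGF1RKO than in Flox within all 3 numbered pairs, but so were Bgn, Col5a3, Col6a2, Col6a3 and Col12a1. The share of all tested genes with this order was not counted. Without the 2 muscle-rich libraries, which leaves 2 in each group, 3 members had an unadjusted p under 0.05, beside 381 of all tested genes (2.93%). Those were Fbln2, Tnc and Thbs1, and again none passed adjustment.

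The other glycoproteins were close to equal in mean. Fn1, for fibronectin, had 389 ± 74.0 scaled CPM in Flox against 364 ± 86.2 in AdIGF1RKO (SD, n = 3). Postn, for periostin, had 137 ± 16.4 and 137 ± 28.4, and Thbs2, for thrombospondin-2, had 33.6 ± 1.12 and 33.3 ± 6.15. The intervals of these differences were wide, as in Fn1 with -0.62 to 0.41, so equal levels are not shown either.

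Ctsk, for cathepsin K, a protease that cleaves fibrillar collagen, had 103, 114 and 111 scaled CPM in Flox and 121, 131 and 99.4 in AdIGF1RKO. AdIGF1RKO held both the highest values and the lowest, and the difference was 0.09 (SE 0.12, 95% interval -0.21 to 0.38).

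**Figure D3:**
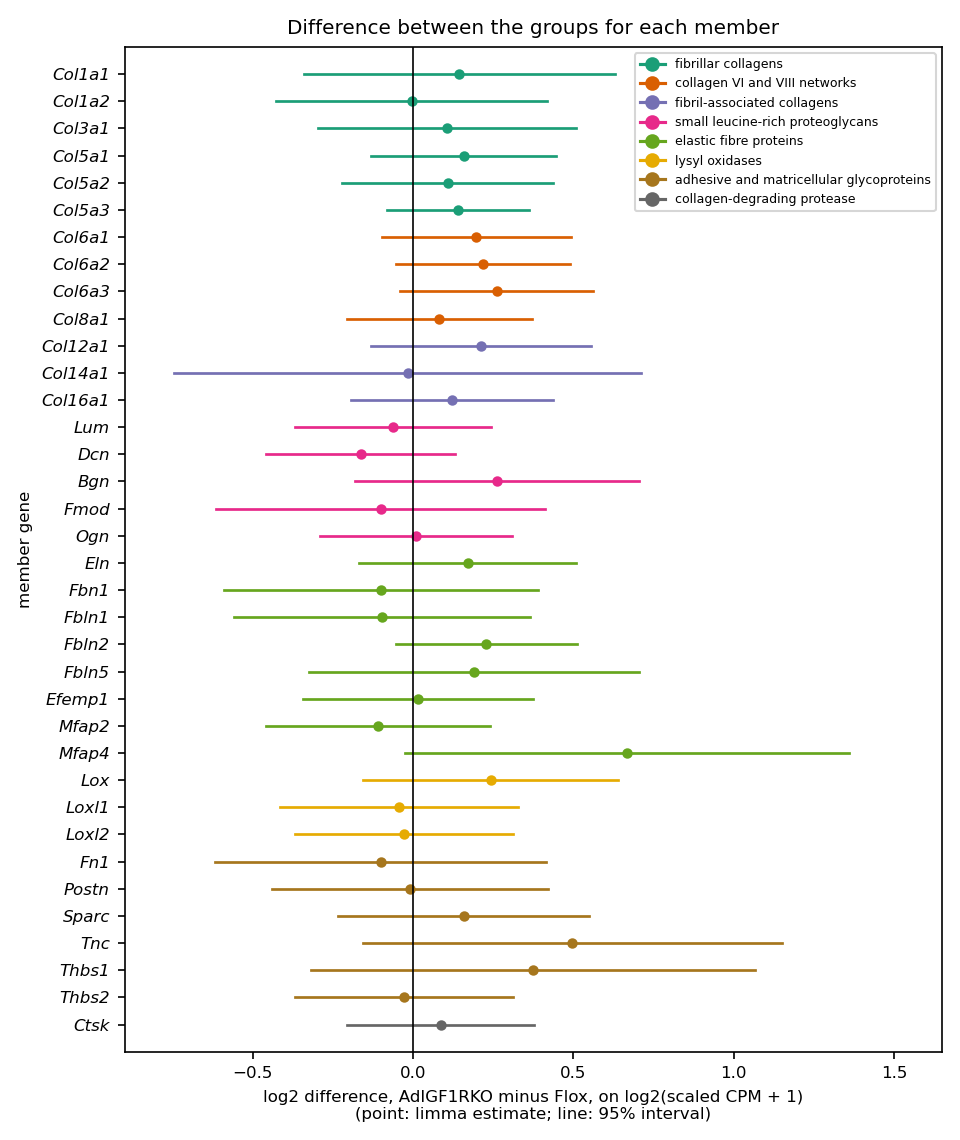
Log2 difference between AdIGF1RKO and Flox for each member (point, limma estimate on log2(scaled CPM + 1)) with its 95% interval (line), coloured by role. All 36 intervals include 0, and Mfap4 at 0.67 and Tnc at 0.50 are the farthest from it.

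**Figure D4:**
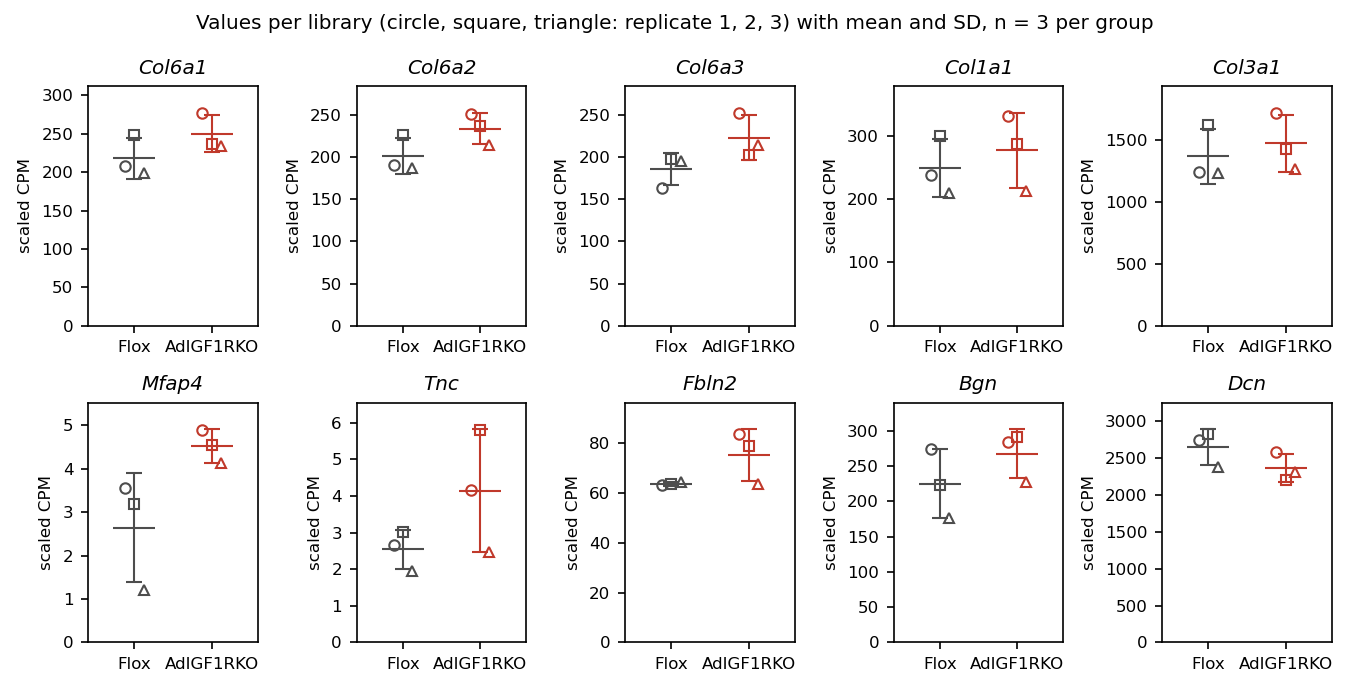
Scaled CPM of 10 members in each library (circle, square and triangle for replicates 1, 2 and 3), with the group mean and SD (n = 3). Mfap4 and Col6a3 are the 2 members whose groups do not overlap, and the Flox triangle is the lowest of all 6 points in every panel except Col6a3, Fbln2 and Dcn.

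Genes around these members were read from 3 lists chosen by role. For comparison, 44.8% of all tested genes were higher in AdIGF1RKO and 2.96% had an unadjusted limma p under 0.05. Groups without overlap made up 4.41% of all tested genes in the higher direction and 3.86% in the lower. The genes named below had the smallest p of their list, a choice that favours groups without overlap. Of 23 tested genes for collagen processing and secretion, 17 were higher and 6 lower in AdIGF1RKO, 0 passed limma, 2 had an unadjusted p under 0.05, and the median difference was 0.04. Plod3, a lysyl hydroxylase and glycosyltransferase of collagen, had 69.6, 74.9 and 70.0 scaled CPM in Flox and 89.3, 89.2 and 80.7 in AdIGF1RKO, a difference of 0.27. Plod2, the hydroxylase of telopeptide lysines, had 11.9, 12.0 and 9.72 in Flox and 7.08, 9.15 and 8.35 in AdIGF1RKO, a difference of -0.41. Tll1, a procollagen C-proteinase, had 1.62 ± 0.220 and 2.18 ± 0.349 scaled CPM (SD, n = 3). In all 3 the groups did not overlap, and the 2 hydroxylases lay on opposite sides of 0. Of the 23 tested genes, 2 were without overlap higher in AdIGF1RKO and 1 lower, beside 4.41% and 3.86% of all tested genes.

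Of 21 matrix receptor genes 16 were higher and 5 lower, 0 passed limma, 3 had an unadjusted p under 0.05, and the median difference was 0.10. Ddr1, a receptor tyrosine kinase for collagen, had 11.0, 10.7 and 11.5 scaled CPM in Flox and 13.4, 17.6 and 19.0 in AdIGF1RKO, a difference of 0.53. Itga1, the integrin subunit for collagen, had 17.1 ± 1.35 and 20.9 ± 1.28 scaled CPM, and Itgb5, of the vitronectin receptor, had 79.3 ± 2.20 and 92.0 ± 6.50 (SD, n = 3). All 3 named receptors, picked by their p, were without overlap, and their limma adjusted p was 0.998. Of the 21 genes, 3 were without overlap higher in AdIGF1RKO and 1 lower, beside 4.41% and 3.86% of all tested genes.

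Of 34 tested genes for other interstitial matrix proteins 17 were higher and 17 lower, 0 passed limma and 4 had an unadjusted p under 0.05, with a median difference of 0.0026. Aspn, for the proteoglycan asporin, had 66.9, 63.9 and 53.0 scaled CPM in Flox and 73.0, 79.2 and 80.2 in AdIGF1RKO. Matn2, for matrilin-2, had 35.5 ± 5.90 and 46.2 ± 3.12 scaled CPM, and Col6a6, a further collagen VI chain, had 6.64 ± 1.15 and 4.63 ± 0.837 (SD, n = 3). Col6a6 lay at -0.44, on the other side of 0 from Col6a1, Col6a2 and Col6a3. The groups did not overlap in the 3 genes named from this list. Of its 34 tested genes, 4 were without overlap higher in AdIGF1RKO and 1 lower, beside 4.41% and 3.86% of all tested genes.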

How the data were processed

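A single table of 14861 genes was used. The authors deposited its values as FPKM, but the deposited signal had been made in each library by scaling whole reads with 1 constant (100% of values, tolerance 0.5), without division by gene length. The libraries were stranded and polyA-selected, per the labels' protocols, and the submitters' processing notes name build GRCm39. The lowest entry was 1 read. Aligner, counter and the use of strand in counting are not stated in those sources.

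Reads recovered this way were scaled by median ratios, with size factors of 0.731 (Flox 3) to 1.17 (AdIGF1RKO 1). Genes with a mean of at least 1 scaled CPM (12993) were tested by limma 3.58.1 (R 4.3.3), on the log2(scaled CPM + 1) scale and with a trend in the variance prior, two-sided, with Benjamini-Hochberg adjustment at 0.05. Alternatives were edgeR 4.0.16, DESeq2 1.42.0, other scalings, filters and pseudocounts, a muscle covariate, a replicate block and leaving out libraries. The values as deposited were fitted with their own library constants, but brought down to a scale per 1000000 before 1 was added. The differences of low genes are therefore understated there too. An exact test of 3 against 3 cannot go below p = 0.1. The limma script was tested on simulated counts that lacked the muscle and macrophage differences between these libraries. That run does not show how limma performs on the present data. The replicate block rests on the data, since the labels name no shared litter or day. Same-numbered libraries of both groups had deviations with r = 0.347, 0.349 and 0.834 across genes, which met the rule for pairing (every r positive and over 0.1). The 0.834 was between Flox 3 and AdIGF1RKO 3, the 2 muscle-rich libraries. Deviations of a group sum to 0, so these r are not independent, and they come from the values that the block fit then tested. They do not show that the samples were paired. The numbers are not the best match throughout, since Flox 2 had r = 0.70 with AdIGF1RKO 1, above its 0.349 with AdIGF1RKO 2. Flox 1 was matched best by its number, but by little, with r = 0.347 against 0.326 with AdIGF1RKO 2. Lengths are of principal transcripts in GENCODE M21 (GRCm38), and promoter sequences are from RefSeq (GRCm38.p6).

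In each role group the member with the highest mean and up to 3 with the smallest p were given by library, as were groups of up to 3 and members without overlap. In each other list up to 3 genes with the smallest p were named. The members and lists were chosen with earlier results of these data known.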

Additional observations from a re-analysis of the deposited data

How the results depend on the processing

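Of 36 members, 13 kept their direction in every alternative in which they were tested (12 higher, 1 lower) and 23 reversed in at least 1. There were 17 alternatives, but 4 members, Col8a1, Col12a1, Mfap4 and Tnc, fell below the filter at a mean of at least 5 and were tested in 16. Among the alternatives, the other filters and the replicate block could not reverse a direction, since they leave each difference unchanged. No member passed the adjusted threshold in any. DESeq2 called 23 of all genes and edgeR 0. Members higher in AdIGF1RKO, 23 with median ratios, were 35 with equal sums and 12 with the values as deposited. Members without overlap were 2 with all libraries (5.56%, beside 8.27% of all tested genes) and 1 with a mean of at least 5 (3.1% beside 8.16%). They were 4 with the values as deposited (11.1% beside 12.5%) and 10 without both muscle-rich libraries (27.8% beside 30.3%). When a library was left out they were 2 to 10, beside 13.3% to 19.0% of all tested genes. Leaving out 1 library called 0 to 1 of all genes, the 1 without Flox 1.

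The replicate block cannot change the differences in this balanced design, so the members' median of 0.11 was the same by construction. The paired fit gave an unadjusted limma p under 0.05 for 3 members and 582 of all genes, and it changed no adjusted call of a member.

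With the values as deposited, the log2 difference reversed to -0.030 for Col16a1, -0.019 for Col1a1, -0.057 for Col3a1, -0.0048 for Col5a1, -0.054 for Col5a2, -0.023 for Col5a3, -0.049 for Col8a1, -0.077 for Ctsk, -0.15 for Efemp1, -0.15 for Ogn and -0.0056 for Sparc. With equal sums, the log2 difference reversed to 0.10 for Col14a1, 0.12 for Col1a2, 0.020 for Fbln1, 0.021 for Fbn1, 0.00098 for Fmod, 0.022 for Fn1, 0.077 for Loxl1, 0.092 for Loxl2, 0.060 for Lum, 0.0074 for Mfap2, 0.11 for Postn and 0.092 for Thbs2. Without both muscle-rich libraries, the log2 difference reversed to 0.074 for Col14a1, 0.015 for Col1a2, -0.050 for Efemp1, 0.048 for Lum, -0.091 for Ogn, 0.074 for Postn and 0.093 for Thbs2. With the muscle covariate, the log2 difference reversed to -0.051 for Efemp1 and -0.042 for Ogn. In edgeR, the log2 difference reversed to 0.0016 for Col1a2 and 0.0039 for Postn. In DESeq2, the log2 difference reversed to 0.0022 for Col1a2 and 0.0060 for Postn. Leaving out each library in turn gave ranges that cross 0, from -0.28 to 0.22 for Col14a1, -0.16 to 0.12 for Col1a2, -0.011 to 0.24 for Col3a1, -0.011 to 0.23 for Col5a2, -0.10 to 0.10 for Efemp1, -0.26 to 0.061 for Fbn1, -0.26 to 0.072 for Fmod, -0.28 to 0.061 for Fn1, -0.17 to 0.067 for Loxl1, -0.15 to 0.068 for Loxl2, -0.14 to 0.052 for Lum, -0.23 to 0.0022 for Mfap2, -0.091 to 0.11 for Ogn, -0.13 to 0.17 for Postn and -0.16 to 0.097 for Thbs2. The ranges that kept their sign were 0.10 to 0.42 for Bgn, 0.14 to 0.29 for Col12a1, 0.027 to 0.19 for Col16a1, 0.0056 to 0.32 for Col1a1, 0.10 to 0.26 for Col5a1, 0.095 to 0.21 for Col5a3, 0.12 to 0.29 for Col6a1, 0.16 to 0.30 for Col6a2, 0.17 to 0.33 for Col6a3, 0.039 to 0.12 for Col8a1, 0.0020 to 0.20 for Ctsk, -0.24 to -0.12 for Dcn, 0.033 to 0.27 for Eln, -0.26 to -0.0026 for Fbln1, 0.15 to 0.34 for Fbln2, 0.0035 to 0.29 for Fbln5, 0.099 to 0.39 for Lox, 0.34 to 0.86 for Mfap4, 0.049 to 0.31 for Sparc, 0.16 to 0.62 for Thbs1 and 0.27 to 0.76 for Tnc. For 33 of 36 members, leaving out 1 library changed the sign or moved the difference by over 1.5 times, the exceptions being Col5a3, Col6a2 and Dcn. The 2 other scalings moved the members together, with an all-gene median of -0.17 as deposited and 0.09 with equal sums, beside -0.02 with median ratios. The 11 members reversed as deposited were those with a difference of 0.010 to 0.16 under median ratios. The 12 reversed with equal sums were all members lower under median ratios except Dcn. The cause of the other reversals was not tested.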
